A study of Mus musculus with 55 samples.

Results

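The mouse paraoxonases Pon1, Pon2 and Pon3 were followed in the cerebellum of pups given chlorpyrifos oxon (CPO), the active product of the insecticide chlorpyrifos. All probe sets whose gene symbol is Pon1, Pon2 or Pon3 were taken. Each gene had 1 such probe set, so the family made up 3 of the 35557 probe sets on the Affymetrix Mouse Gene 1.0 ST array and 3 of the 21789 that carry 1 gene symbol. Mice of the C57Bl/6 strain were injected under the skin every day from postnatal day 4 to day 21, and the cerebellum was taken at day 22. The labels give 4 genotypes. They are wild type (WT, Pon1+/+), knockout (KO, Pon1-/-) and 2 lines with a transgene for human PON1, whose variable residue is glutamine in one (Q192, tgHuPON1Q192) and arginine in the other (R192, tgHuPON1R192). In background knowledge of published lines with these names, the human transgene sits in mice without functional mouse Pon1. The labels do not say so, and they name no promoter for the transgene. Each genotype received vehicle (dimethyl sulfoxide, DMSO), 0.35 or 0.5 mg/kg/day CPO. In that order WT had 6, 6 and 3 arrays, KO had 4, 5 and 3, and Q192 and R192 each had 4, 5 and 5, which makes 55 arrays in 12 groups. No label says whether every array came from its own pup, so p-values measure the spread between these samples, which may be partly technical. The sample descriptions carry 36 numbers whose meaning is not stated, and 36 of the 55 arrays share theirs with another array. The 3 arrays of WT at 0.5 carry 2 numbers, as do the 3 of KO at 0.5. Sex is not labelled.

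Paraoxonases are calcium-dependent esterases and lactonases. PON1 is made mainly in the liver, circulates on high-density lipoprotein (HDL) and hydrolyses the oxon forms of several organophosphate insecticides, CPO among them. PON2 stays inside cells, in membranes of mitochondria and the endoplasmic reticulum, limits oxidative stress and has little activity against organophosphates. PON3 is a lactonase found on HDL and inside cells. The genes lie next to each other on chromosome 6, in the order Pon1, Pon3, Pon2 in the GRCm38.p6 gene table, and PON2 is the member generally described in brain.

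The 250 bases ahead of each start site are shown because the 3 neighbouring genes had different patterns across the genotypes. They were read from RefSeq promoters of build GRCm38.p6 on the minus strand, 5′ to 3′, at chr6:5193947-5194196 for Pon1, chr6:5256234-5256483 for Pon3 and chr6:5298341-5298590 for Pon2. Capitals mark matches, on either strand, to GGGCGG (the GC box), CCAAT (the CCAAT box) or GCGTG (the core bound by the aryl hydrocarbon receptor).
Pon1: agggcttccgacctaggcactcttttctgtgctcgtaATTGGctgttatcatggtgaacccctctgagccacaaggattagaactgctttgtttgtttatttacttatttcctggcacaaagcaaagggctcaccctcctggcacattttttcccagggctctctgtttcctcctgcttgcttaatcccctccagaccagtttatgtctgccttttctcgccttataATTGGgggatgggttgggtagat
Pon3: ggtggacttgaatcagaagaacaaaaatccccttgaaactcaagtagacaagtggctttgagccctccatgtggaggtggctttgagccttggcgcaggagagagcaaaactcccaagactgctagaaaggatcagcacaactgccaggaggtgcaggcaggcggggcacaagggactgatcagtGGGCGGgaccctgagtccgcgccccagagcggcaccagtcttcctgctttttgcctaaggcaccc
Pon2: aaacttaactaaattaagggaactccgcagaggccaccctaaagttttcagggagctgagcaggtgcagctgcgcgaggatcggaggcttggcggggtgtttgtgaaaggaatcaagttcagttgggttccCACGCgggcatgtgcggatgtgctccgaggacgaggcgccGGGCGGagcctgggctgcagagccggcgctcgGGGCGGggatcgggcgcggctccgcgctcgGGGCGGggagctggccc
The Pon2 window held 3 GC boxes and 1 GCGTG match. It was 65.6% G or C with 24 CpG dinucleotides, a count that 89.3% of 32851 promoter windows of this length did not exceed. The Pon3 window held 1 GC box, was 56.8% G or C and had 6 CpG, the median count of all windows. The Pon1 window held 2 CCAAT matches, both on the opposite strand as ATTGG, was 47.6% G or C and had 3 CpG. Among all windows, 32.7% held a GC box, 33.8% a CCAAT box and 28.2% a GCGTG match. None of the 3 windows held TATAAA (12.4% of all windows), TGACNNNGC (10.2%) or CACGTG (6.02%). The motifs searched did not overlap each other in these windows. A match describes letters only, and no binding was measured.

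The tissue label was checked against cell type markers. All 15 granule neuron genes and all 9 measured Purkinje cell genes lay above the 25th percentile of mean level (6.47 on the log2 scale) in every genotype. Only 3 of 11 hepatocyte genes did, and albumin was at 5.42. At least 20 of 21 measured brainstem and midbrain neuron genes and 11 of 12 choroid plexus genes also lay above that level in every genotype. The check therefore cannot tell cerebellum from adjoining brain. WT vehicle replicate 4 had the lowest granule neuron mean of the 55 arrays (9.10) and the highest oligodendrocyte (11.79), microglia (8.46) and endothelial (9.25) means. WT 0.35 replicates 1 and 2 and KO 0.35 replicate 5 also stood apart on marker lists. The last shares its description number with R192 0.35 replicates 3 and 4. The arrays carry 2 dates, each spread over all 12 groups, and array medians lay between 7.37 and 7.54.

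Pon1 was checked first, because it is the gene the KO label names. The labels and the signal went opposite ways. In the 15 WT arrays, Pon1 lay between 4.79 and 5.55 on the log2 scale. In the 12 arrays labelled KO, it lay between 9.78 and 10.39. Which part of Pon1 the KO allele disrupts and where these probes lie are not given in the sources used here, so the probe set cannot settle the label. The 15 arrays labelled WT (Pon1+/+) read at background. Since PON1 is made mainly in the liver, a background level in cerebellum cannot test that label. KO and WT in what follows mean the arrays so labelled. Every direction against WT, for Q192 and R192 too, carries the doubt about the labels.

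Array by array, Pon1 split into a low and a high set with nothing between. In WT vehicle arrays the lowest, median and highest levels were 4.88, 5.17 and 5.55. At 0.35 mg/kg/day in WT they were 4.90, 5.24 and 5.49. The 3 WT arrays at 0.5 read 5.36, 4.79 and 5.05. These levels did not separate by dose. The 4 vehicle arrays labelled KO read 10.35, 9.95, 10.03 and 10.29. The 5 arrays labelled KO at 0.35 read 9.78, 10.19, 9.99, 9.96 and 10.39, and the 3 at 0.5 read 9.92, 10.13 and 9.94. All 12 therefore stood above every WT array. In Q192 the vehicle arrays read 9.93, 10.12, 10.17 and 10.01. Those at 0.35 read 10.20, 10.06, 10.27, 9.78 and 10.27, and those at 0.5 read 10.01, 10.21, 10.12, 10.03 and 10.26. The 14 R192 arrays lay between 9.98 and 10.31. The ranges of KO, Q192 and R192 overlapped, with the lowest arrays in KO and Q192 (9.78) and the highest in KO (10.39).

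Mean Pon1 was 5.19 ± 0.24 in WT (SD, n = 15), 10.08 ± 0.19 in arrays labelled KO (SD, n = 12), 10.10 ± 0.14 in Q192 (SD, n = 14) and 10.13 ± 0.11 in R192 (SD, n = 14). The WT level sat at the median of 1035 olfactory receptor (Olfr) probe sets, which were taken as a description of array background (median 5.17, middle range 4.44 to 5.80). Differences from WT are therefore set by that background and given as lower bounds, with no fold and no rank by size. On the mean of the 3 treatments, Pon1 was higher than in WT by at least 4.90 on the log2 scale in KO (adjusted p = 2.66e-44), at least 4.93 in Q192 (adjusted p = 2.27e-45) and at least 4.96 in R192 (adjusted p = 1.55e-45), by limma with Benjamini-Hochberg adjustment over 21789 probe sets. It was called in all 9 comparisons within single treatments as well. These comparisons share the WT arrays. Of all 21789 probe sets, 0.289% were called in KO minus WT, where 2 of the 3 paraoxonases were, 0.358% in Q192 minus WT, where 3 of 3 were, and 0.826% in R192 minus WT, where 2 of 3 were.

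Among the arrays with high Pon1, no difference between genotypes was detected. Q192 minus KO was +0.03 (95% confidence interval -0.12 to 0.18), R192 minus KO was +0.06 (-0.09 to 0.21) and R192 minus Q192 was +0.03 (-0.12 to 0.17), with adjusted p of 0.936, 0.74 and 0.924. The pooled SD of Pon1 within groups was 0.18. In these 3 pairs 0.303%, 4.5% and 0.0505% of all probe sets were called and 0 of the 3 paraoxonases. An unadjusted limma p under 0.05 was found in 2 of 9 member tests, both for Pon3. They were R192 against KO and R192 against Q192, where 4325 and 2129 of 21789 probe sets had one.

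**Figure D1:**
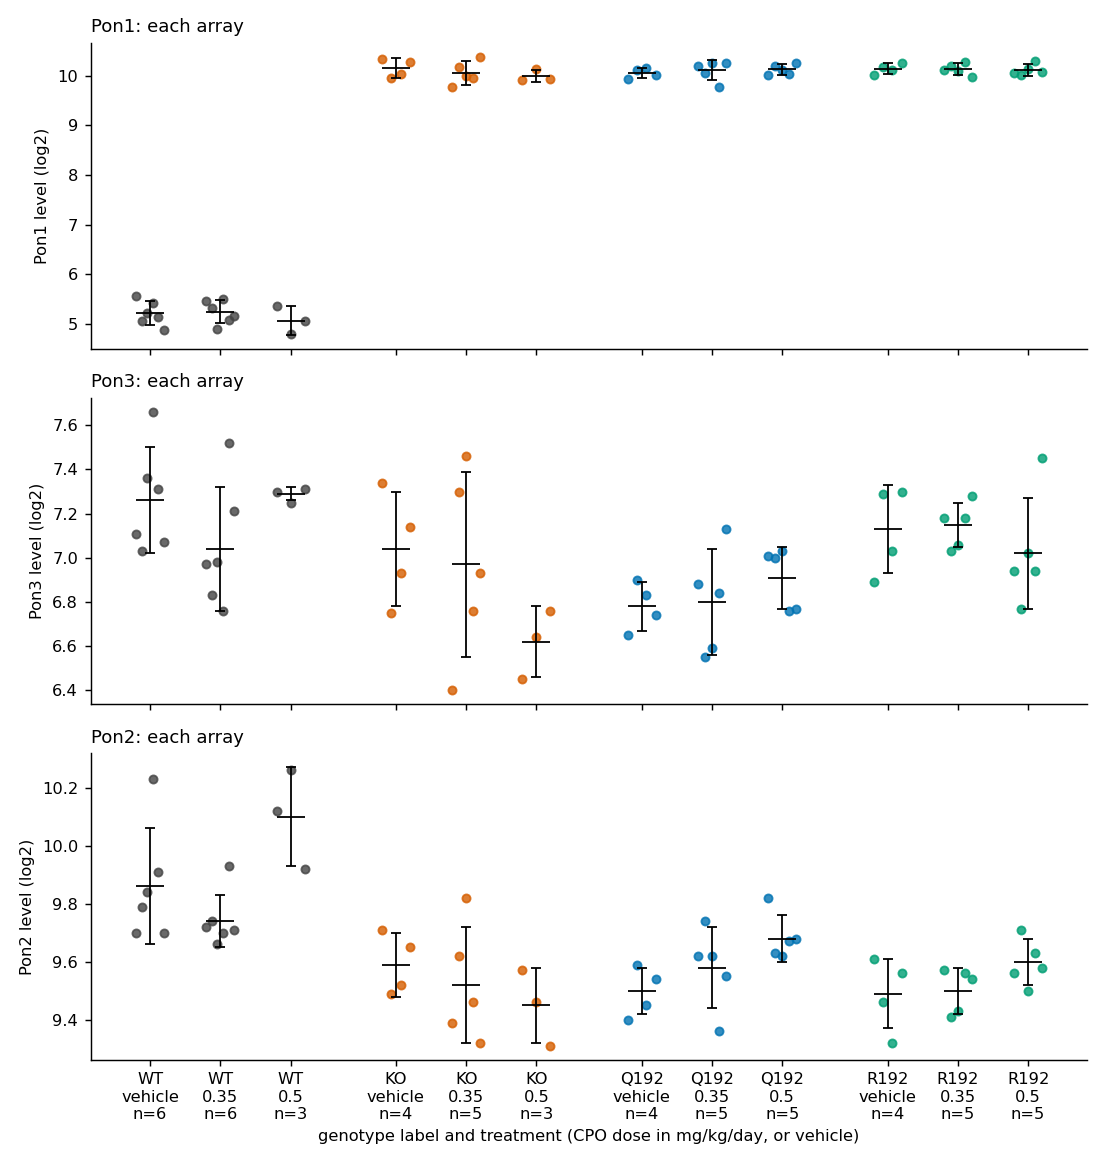
Log2 level of Pon1, Pon3 and Pon2 in each of the 55 arrays (points) by genotype label and treatment, with group mean and SD (bars); n is below each group, and each panel has its own axis. Pon1 stays at or under 5.55 in all 15 WT arrays and at or above 9.78 in all 40 others, while Pon2 is lower in most of those 40.

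Pon2, the intracellular paraoxonase, was lower in all 3 other genotypes than in WT. Mean Pon2 was 9.86 ± 0.20 in WT (SD, n = 15), 9.53 ± 0.15 in arrays labelled KO (SD, n = 12), 9.59 ± 0.13 in Q192 (SD, n = 14) and 9.53 ± 0.10 in R192 (SD, n = 14). The log2 difference from WT was -0.38 for KO (SE 0.0551, adjusted p = 1.67e-05), -0.31 for Q192 (SE 0.0527, adjusted p = 0.000186) and -0.37 for R192 (SE 0.0526, adjusted p = 8.63e-06). All 40 arrays of the other genotypes lay under the WT mean, and 33 of them lay under the lowest WT array (9.66). The 3 comparisons share the WT arrays and are not independent. In bulk tissue, fewer cells of a type and less RNA per cell cannot be told apart.

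In WT vehicle arrays, the lowest, median and highest Pon2 levels were 9.70, 9.82 and 10.23. In WT at 0.35 they were 9.66, 9.71 and 9.93, and the 3 WT arrays at 0.5 read 10.12, 10.26 and 9.92. The WT arrays at 0.5 thus had the highest mean of the 12 groups. Pon2 in vehicle arrays labelled KO read 9.71, 9.49, 9.52 and 9.65. At 0.35 these arrays read 9.39, 9.62, 9.82, 9.46 and 9.32, and at 0.5 they read 9.57, 9.46 and 9.31. Only 2 of the 12 arrays labelled KO reached the WT range. In Q192 vehicle arrays Pon2 read 9.40, 9.59, 9.45 and 9.54. At 0.35 it read 9.62, 9.74, 9.62, 9.36 and 9.55, and at 0.5 it read 9.82, 9.63, 9.62, 9.67 and 9.68. Of the 14 Q192 arrays, 4 reached the WT range. In R192 vehicle arrays Pon2 read 9.61, 9.46, 9.32 and 9.56. At 0.35 it read 9.57, 9.41, 9.43, 9.56 and 9.54, and at 0.5 it read 9.56, 9.71, 9.50, 9.63 and 9.58. Only 1 of the 14 R192 arrays reached the WT range.

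Split by treatment, all 9 Pon2 differences from WT were negative, between -0.64 and -0.17. Of the 9, 3 passed, while all 9 had an unadjusted p under 0.05. Among all 21789 probe sets, such a p was found at vehicle for 3589, 563 and 4335 (KO, Q192 and R192 against WT). At 0.35 it was found for 2613, 2521 and 2240, and at 0.5 for 4006, 622 and 971. At vehicle, 0.124%, 0.11% and 4.02% of all probe sets were called for KO, Q192 and R192 against WT, at 0.35 0.184%, 0.174% and 0.156%, and at 0.5 0.188%, 0.0964% and 0.0872%. Pon1 was called in all 9. The Pon2 calls were R192 at vehicle (-0.37, adjusted p = 0.0192), KO at 0.5 (-0.64, adjusted p = 0.00152) and R192 at 0.5 (-0.49, adjusted p = 0.0181). The vehicle call was lost without R192 vehicle replicate 2 or 4 (adjusted p = 0.147 and 0.0553). It was also lost on each array date alone (adjusted p = 0.305 and 0.319). The KO call at 0.5 was lost without KO 0.5 replicate 3 (adjusted p = 0.0727), with only the genotypes compared in the fit (0.128) and on each date alone (0.363 and 0.203). The R192 call at 0.5 was lost without R192 0.5 replicate 1, 3 or 5 or WT 0.5 replicate 1 or 2, with adjusted p between 0.0519 and 0.262. It was lost as well with only the genotypes compared (adjusted p = 0.0579) and on each date alone (0.268 and 0.801). Q192 at 0.5 (-0.41, adjusted p = 0.143) passed only without WT vehicle replicate 4 (adjusted p = 0.0437), and in none of the 14 alternatives. At 0.35 no genotype passed for Pon2, with differences of -0.22 for KO, -0.17 for Q192 and -0.24 for R192 (adjusted p = 0.251, 0.426 and 0.239).

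Within single array dates, Pon2 remained lower than in WT. On date 1 the differences were -0.38 for KO (adjusted p = 0.0197), -0.24 for Q192 (adjusted p = 0.254) and -0.33 for R192 (adjusted p = 0.0378). On date 2 they were -0.43, -0.38 and -0.42 (adjusted p = 0.0521, 0.0685 and 0.025). Without WT vehicle replicate 4, whose Pon2 of 10.23 was the highest of its group, the differences on the mean of treatments were -0.35, -0.29 and -0.34. Without the other 3 arrays that stood apart they were -0.36, -0.31 and -0.37. All 6 of these values passed. Among arrays labelled KO, Q192 and R192, Pon2 differed by between -0.05 and +0.06 and no pair passed. The widest 95% confidence intervals of these pairs reached -0.16 and 0.17.

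Pon3, the lactonase between the other 2 genes on the chromosome, was lower in Q192 than in WT, and this was the only 1 of its 6 genotype pairs that passed. Its mean was 7.18 ± 0.25 in WT (SD, n = 15), 6.90 ± 0.34 in arrays labelled KO (SD, n = 12), 6.83 ± 0.17 in Q192 (SD, n = 14) and 7.10 ± 0.19 in R192 (SD, n = 14). The log2 difference from WT was -0.36 for Q192 (SE 0.0863, adjusted p = 0.0327). It was -0.30 for KO (SE 0.0903, adjusted p = 0.252) and -0.09 for R192 (SE 0.0860, adjusted p = 0.755). All 14 Q192 arrays lay under the WT mean and 5 of them under the lowest WT array (6.76), so the groups overlapped.

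In Q192 vehicle arrays Pon3 read 6.65, 6.90, 6.83 and 6.74. At 0.35 it read 6.88, 6.55, 6.59, 6.84 and 7.13, and at 0.5 it read 7.01, 7.0, 7.03, 6.76 and 6.77. In WT vehicle arrays the lowest, median and highest levels were 7.03, 7.21 and 7.66. The vehicle difference between these 2 genotypes was -0.48 and did not pass by limma (adjusted p = 0.633). Of the 9 Pon3 differences from WT within single treatments, 0 passed by limma and 3 had an unadjusted p under 0.05. These 3 were Q192 at vehicle, KO at 0.5 and Q192 at 0.5, where 563, 4006 and 622 of 21789 probe sets had one. KO at 0.5 passed with array quality weights (-0.67, adjusted p = 0.016), and in no other alternative. In WT at 0.35 the lowest, median and highest were 6.76, 6.98 and 7.52, and the 3 WT arrays at 0.5 read 7.30, 7.25 and 7.31. Arrays labelled KO spread widest, from 6.40 to 7.46, with both ends in the 0.35 group. R192 arrays lay between 6.77 and 7.45, inside the WT range.

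The Pon3 call in Q192 sat close to the threshold. It was lost on each array date alone, at -0.29 on date 1 (adjusted p = 0.437) and -0.47 on date 2 (adjusted p = 0.371). It was lost without any 1 of 13 arrays, with adjusted p between 0.0505 and 0.12. These were Q192 vehicle replicates 1, 3 and 4, Q192 0.35 replicates 2 and 3, Q192 0.5 replicates 4 and 5, WT vehicle replicates 3 and 4, WT 0.35 replicates 5 and 6, and WT 0.5 replicates 1 and 3. Q192 and KO differed by -0.06 (95% confidence interval -0.24 to 0.12, adjusted p = 0.893), so the Q192 and KO levels of Pon3 were not shown to differ. R192 exceeded KO by 0.22 (0.04 to 0.40, adjusted p = 0.146) and Q192 by 0.28 (0.10 to 0.45, adjusted p = 0.381).

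CPO changed no paraoxonase past the threshold in any genotype. None of the 36 tests passed by limma (0.35 against vehicle, 0.5 against vehicle and 0.5 against 0.35, for 3 genes in 4 genotypes), and 4 of the 36 had an unadjusted p under 0.05. Of all probe sets, 0.00459%, 0.799% and 1.12% were called in WT for these comparisons, in that order. In Q192 the shares were 0%, 0% and 0.0321%, and in KO and R192 they were 0% in all 3. The 4 tests were Pon2 at 0.5 against vehicle in WT and Q192, Pon2 at 0.5 against 0.35 in WT, and Pon3 at 0.5 against vehicle in KO. There, 4133, 2539, 3992 and 2327 of 21789 probe sets also had an unadjusted p under 0.05. Over all dose comparisons these counts ran from 352 to 4133. Comparisons within a genotype share arrays, since both doses are set against the same vehicle group.

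Pon1 in KO, Q192 and R192 differed by between -0.17 and +0.07 with dose, and the 95% confidence intervals lay between -0.46 and 0.32. In WT, where Pon1 is at background in all 3 treatments, a dose difference in it could not be measured. Pon2 at 0.5 against vehicle was +0.23 in WT (95% confidence interval 0.04 to 0.43, adjusted p = 0.177), with 3 of 3 arrays above the vehicle mean. Without WT vehicle replicate 4 this value was 0.30 and passed (adjusted p = 0.042). It did not pass without any other single array (adjusted p up to 0.539) or in the 14 alternatives (0.0502 to 0.684). In WT, 0.5 exceeded 0.35 by 0.35 (0.15 to 0.54, adjusted p = 0.0578), a value just outside the threshold. It passed with no number correlation, with a level filter, with array quality weights and with choroid plexus markers as a covariate (adjusted p between 0.0287 and 0.0448). It also passed without any 1 of KO 0.35 replicates 3 and 5, WT 0.35 replicates 4 and 5, WT 0.5 replicate 3 and WT vehicle replicates 1 and 4 (adjusted p between 0.0147 and 0.0498). In the remaining fits it did not pass, with adjusted p up to 0.357 without single arrays and up to 0.556 in the 14 alternatives. In Q192 Pon2 at 0.5 against vehicle was +0.19 (0.00 to 0.37, adjusted p = 0.421), with 5 of 5 arrays above the vehicle mean. In R192 it was +0.11 (-0.08 to 0.29), with 5 of 5 arrays above the vehicle mean. In arrays labelled KO it was -0.15 (-0.36 to 0.06), with 3 of 3 arrays below the vehicle mean. At 0.35 Pon2 differences from vehicle ran from -0.11 in WT to +0.08 in Q192.

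Pon3 at 0.5 against vehicle was -0.41 in arrays labelled KO (95% confidence interval -0.75 to -0.06, adjusted p = 0.463), where the arrays read 6.45, 6.64 and 6.76 against 7.34, 6.75, 6.93 and 7.14. These groups overlapped only where 6.76 exceeded 6.75. Pon3 was +0.01 in WT, +0.15 in Q192 and -0.09 in R192. In the same comparisons the choroid plexus marker mean was -0.43 in KO (SE 0.191) and -0.42 in WT (SE 0.178). That mean was +0.18 in Q192 and +0.09 in R192. The 14 alternatives, which include that mean as a covariate, put the Pon3 value in KO between -0.50 and -0.18. None of them passed by limma (adjusted p between 0.346 and 0.847). Beyond that, the part of the choroid plexus mean in the Pon3 values was not tested. At 0.35 Pon3 was -0.21 in WT, -0.09 in KO and 0.00 in both Q192 and R192. The standard errors of Pon3 dose differences lay between 0.131 and 0.171, which sets the size that these numbers of arrays can resolve.

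**Figure D2:**
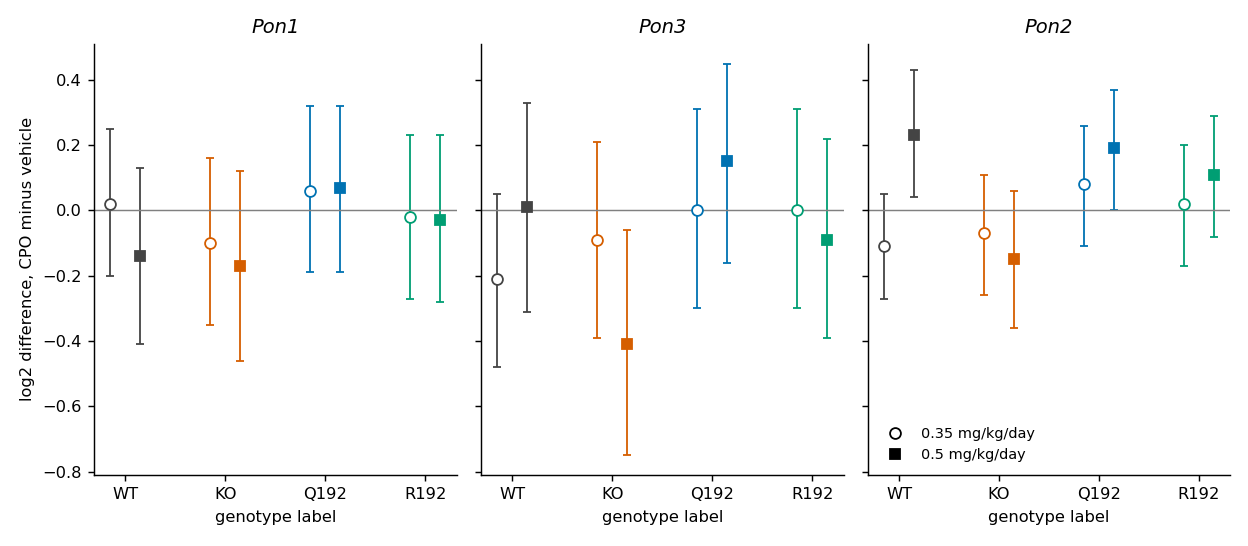
Log2 difference between CPO and vehicle for each paraoxonase in each genotype label, with 95% confidence intervals; open circles are 0.35 and filled squares 0.5 mg/kg/day. None of these differences passed over all probe sets, and the intervals at 0.5 of Pon2 in WT and, narrowly, in Q192 and of Pon3 in KO do not cross 0.

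The difference of dose effects between genotypes was tested for KO, Q192 and R192 against WT and for R192 against Q192. None of 24 member tests passed by limma, and 1 had an unadjusted p under 0.05. That one was Pon2 at 0.5 in KO against WT, at -0.38 (95% confidence interval -0.67 to -0.09, adjusted p = 0.0872). It passed only without WT vehicle replicate 4 (-0.45, adjusted p = 0.031). Adjusted p reached 0.305 over the 55 fits that leave out 1 array. It lay between 0.0586 and 0.592 over the 14 alternatives. In this comparison of KO and WT at 0.5, 5682 of 21789 probe sets had an unadjusted p under 0.05, so Pon2 did not stand out by it. Of all probe sets 5.05% were called there, and 0.00459% were called for the effect of 0.35 in KO against WT. The remaining 6 of the 8 comparisons called 0%. Pon1 differences of dose effects, of which those against WT rest on background levels, lay between -0.12 and +0.21. Those of Pon3 lay between -0.42 and +0.22.

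Organophosphates act on acetylcholinesterase (Ache) and butyrylcholinesterase (Bche), so their probe sets were set beside the paraoxonases. Of 36 tests of genotype pairs and doses, 0 passed by limma and 5 had an unadjusted p under 0.05. Those 5 fell in comparisons where between 804 and 4325 of 21789 probe sets had one. Ache at 0.35 against vehicle was -0.53 in WT (95% confidence interval -0.88 to -0.17, adjusted p = 0.133) and +0.41 in arrays labelled KO (0.01 to 0.82, adjusted p = 0.734). The mean of the brainstem and midbrain neuron markers moved by -0.34 (SE 0.136) and +0.26 (SE 0.154) in these comparisons. It was not alone: in WT the oligodendrocyte mean moved by -0.44 (SE 0.143), endothelial by -0.30 (SE 0.0755), microglia by -0.25 (SE 0.0778) and granule neuron by +0.37 (SE 0.174). In KO these moved by +0.20, +0.08, +0.06 and -0.10. In Q192 Ache was -0.27 and the brainstem and midbrain mean -0.08, and in R192 they were +0.10 and -0.10. The part of tissue content in the Ache values was not tested. Bche was 0.24 higher in R192 than in KO (adjusted p = 0.0826).

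The genes around the cluster were given in their chromosomal order. On the Pon1 side lie Ppp1r9a (neurabin, an actin-binding scaffold), Peg10 (an imprinted gene derived from a retrotransposon) and Sgce (epsilon-sarcoglycan). On the Pon2 side lie Asb4 (an adaptor of ubiquitin ligases), Pdk4 (a kinase that inhibits pyruvate dehydrogenase) and Dync1i1 (a dynein intermediate chain). For Sgce, Peg10 and Ppp1r9a, 0 of 18 tests of genotype pairs passed by limma and 2 had an unadjusted p under 0.05. Their differences from WT lay between -0.22 and -0.01. Asb4 was lower in Q192 (-0.28, adjusted p = 0.0157) and R192 (-0.28, adjusted p = 0.012), and was -0.19 in KO (adjusted p = 0.544). Its means, 6.09 in WT and 5.80 to 5.88 elsewhere, lay under the level of 6.47 that marks the lowest 25 percent of probe sets.

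Pdk4 was higher in arrays labelled KO (+0.54, SE 0.103, adjusted p = 0.00174), and was +0.35 in Q192 (adjusted p = 0.149) and +0.24 in R192 (adjusted p = 0.304). Mean Pdk4 was 7.26 ± 0.25 in WT (SD, n = 15) and 7.79 ± 0.29 in KO (SD, n = 12). Dync1i1 was 0.08 above WT in KO and 0.08 below it in R192, and neither passed. R192 was below KO for Dync1i1 by a difference of -0.16 (adjusted p = 0.0316). Along the chromosome, differences from WT that passed were thus positive at Pon1 and Pdk4 and negative at Pon3 (Q192 alone), Pon2 and Asb4.

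**Figure D3:**
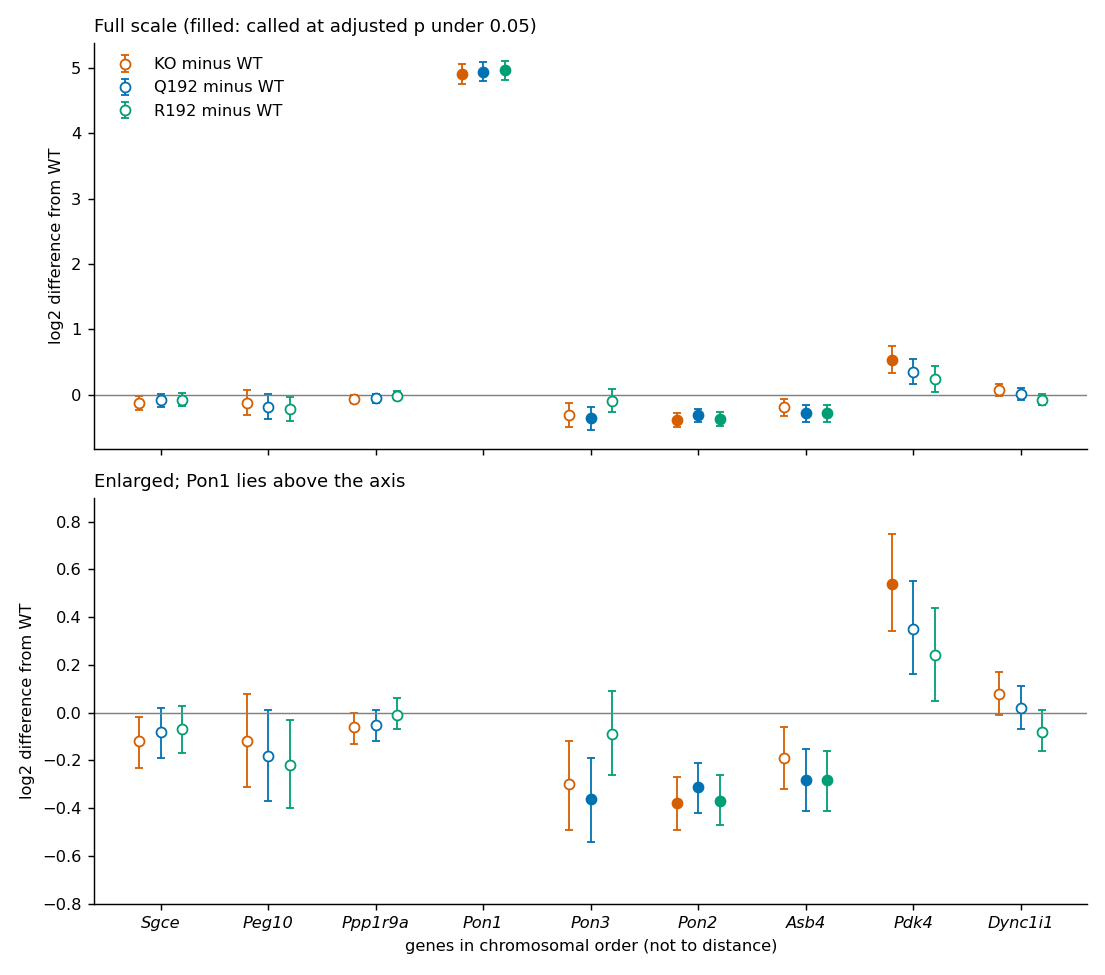
Log2 difference from WT, with 95% confidence intervals, for the 3 paraoxonases and the 3 genes on either side that have a probe set, in chromosomal order and not to distance; filled points passed. Pon1 lies far above the other genes at a value that is a lower bound, since its WT level is at array background, while in the enlarged panel Pon2 lies between -0.38 and -0.31 and Pdk4 between +0.24 and +0.54.

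Lists of genes that share the biology of the paraoxonases were described by counts and medians. Of 43 enzymes that handle organophosphates (cholinesterases, carboxylesterases, glutathione transferases and others), 42 were measured and 19 lay above the 25th percentile. By limma 0 of 42 passed against WT in each genotype. For KO, Q192 and R192, 2, 1 and 5 had an unadjusted p under 0.05, beside 1054, 1028 and 2609 of all 21789 probe sets. Medians of the 42 were -0.01 for KO, Q192 and R192, beside -0.01, 0.00 and 0.00 over all probe sets. Gstm5, a glutathione transferase, was higher in R192 than in KO (+0.31, adjusted p = 0.0121). Of 21 partners of PON1 on HDL, 19 were measured, and 1 passed in 1 comparison. It was Saa4, a serum amyloid A apolipoprotein, in R192 against KO (+0.27, adjusted p = 0.0244).

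Of 30 antioxidant genes, 27 were measured and all 27 lay above the 25th percentile. Sod1, the cytosolic superoxide dismutase, was higher in R192 than in WT (+0.17, adjusted p = 0.0192) and than in KO (+0.15, adjusted p = 0.0236). Gpx4, which reduces lipid peroxides, and Prdx1, a peroxiredoxin, were higher in R192 than in KO (+0.21 and +0.26, adjusted p = 0.00772 and 0.022). The R192 minus KO comparison, which called 4.5% of all probe sets, thus called 1 of 42, 1 of 19 and 3 of 27 list genes. For each dose of CPO against vehicle, 0 list genes passed by limma in any genotype. An unadjusted p under 0.05 was found at 0.5 in WT for 8 of 42, 5 of 19 and 8 of 27 list genes, beside 4133 of all 21789 probe sets. At 0.5 in R192 it was found for 0 in all 3 lists, beside 352 of all probe sets.

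For each paraoxonase the 5 genes with the most similar level across the 55 arrays were taken. For Pon1 these were Trim12a, Pglyrp1, Trim30d and Zfp109, all on chromosome 7, and Rabl2 on chromosome 15. Because Pon1 falls into 2 separate clusters, no pooled correlation is given, and the likeness is the step between WT and the rest. Mean Trim12a was 4.76 in WT and 6.75 in the 40 others. Pglyrp1, which encodes a peptidoglycan recognition protein, went from 7.64 to 8.59, and Trim30d from 5.46 to 6.33. The WT levels of Trim12a and Trim30d lay inside the middle range of the Olfr probe sets. Zfp109 went from 7.68 to 8.14 and Rabl2, a small GTPase, from 7.52 to 8.19. Arrays labelled KO were with Q192 and R192 for all 5, from 6.69 to 6.81 for Trim12a as an example. Within the 40 arrays that are not WT, the genes most like Pon1 were others. Nmd3, a ribosome export factor, had a Pearson r of 0.93, and Rad17, Dek, Trim23 and Ppil4 had r between 0.90 and 0.92.

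For Pon3 the most similar genes over 55 arrays were Anxa4, Fgl2, Dcn, Car13 and Trim21, with r from 0.74 to 0.76. After group means and date were removed they were Car13 (r = 0.83), Gpx8, Serpind1, Dcn and Ogn (r = 0.75 to 0.78). Dcn (decorin) and Ogn (osteoglycin) are extracellular matrix proteoglycans. For Pon2 they were BC031181, Ica1, Trim21, Atp13a4 and Olfml1, with r from 0.67 to 0.69. Of these, Ica1 lies on chromosome 6 and fell from a mean of 9.81 in WT to 9.33 in the other arrays. After group means and date were removed, the genes most like Pon2 were Mgp (matrix Gla protein), Ctsl, Ppt1, Aga and Mtmr10, with r from 0.66 to 0.71. Ctsl (cathepsin L), Ppt1 and Aga encode lysosomal enzymes. These values describe arrays that share groups and a normalisation, and carry no test.

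Deviations of the paraoxonases from their group means, with date removed, were set against cell type marker means and against each other in 33 relations. Each was tested with 100000 permutations within groups, two-sided, with Benjamini-Hochberg adjustment over the 33. Arrays that share a description number are not fully independent, and 1 number spans 2 groups.

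Pon3 followed the choroid plexus genes, the secretory epithelium of the ventricles, over 55 arrays (Pearson r = 0.58, permutation p = 0.00055, adjusted p = 0.018, Spearman rho = 0.50, permutation p = 0.0012). The relation was 0.63 on date 1 and 0.55 on date 2, and 0.47 without the 2 arrays farthest from the median of the choroid plexus mean. The choroid plexus mean ranged from 7.39 to 8.38 in WT, 7.49 to 8.76 in KO, 7.60 to 8.13 in Q192 and 7.77 to 8.30 in R192, with 11 of 12 measured genes above the 25th percentile in each. Q192 minus WT in that mean was -0.08 (SE 0.0962). With it as a covariate, Pon3 in Q192 differed from WT by -0.32 and still passed (adjusted p = 0.0174), and the KO difference of -0.32 passed as well (adjusted p = 0.0282).

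Pon2 went against the granule neuron genes (Pearson r = -0.56, permutation p = 0.0015, adjusted p = 0.025, Spearman rho = -0.44, permutation p = 0.0034, adjusted 0.056). The relation was -0.27 on date 1 and -0.71 on date 2, and -0.39 without the 2 arrays farthest from the median, so it rests in part on those arrays and on date 2. Pon2 also followed the microglia genes (Pearson r = 0.42, permutation p = 0.0037, adjusted p = 0.04, Spearman rho = 0.36, permutation p = 0.014, adjusted 0.075), with 0.22 on date 1, 0.54 on date 2 and 0.33 without the 2 farthest arrays. All 11 measured microglia genes lay above the 25th percentile in every genotype. The microglia mean ranged from 7.57 to 8.46 in WT, 7.62 to 8.03 in KO, 7.92 to 8.15 in Q192 and 7.89 to 8.33 in R192. It differed from WT by -0.17 in KO (SE 0.0534), -0.02 in Q192 and -0.01 in R192, and the granule neuron mean by +0.13, -0.01 and -0.10 (SE 0.114 to 0.119). Their part in the Pon2 differences was not tested.

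**Figure D4:**
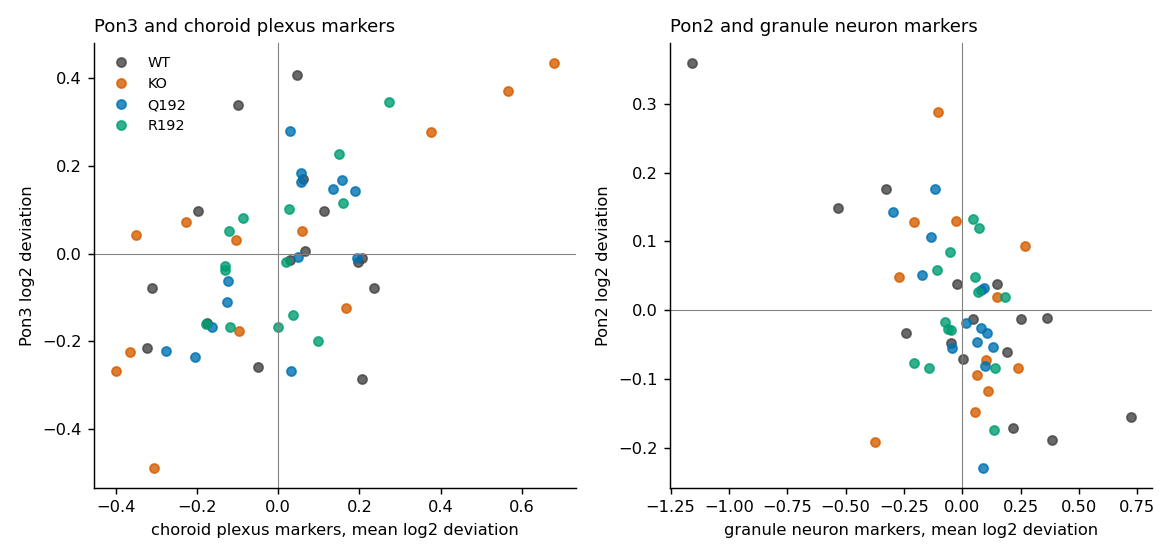
Deviation of Pon3 against that of the choroid plexus markers (left) and of Pon2 against that of the granule neuron markers (right), each after removing group means and array date, log2 scale, 1 point per array (n = 55) coloured by genotype label. Pon3 rises with the choroid plexus mean (r = 0.58) and Pon2 falls with the granule neuron mean (r = -0.56), with 1 WT array far to the left.

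Between the paraoxonases themselves no relation passed. In the 15 WT arrays Pon2 and Pon3 had a Pearson r of 0.64 (permutation p = 0.0082, adjusted p = 0.054) and a Spearman rho of 0.48 (permutation p = 0.077), and r was 0.21 without the 2 farthest arrays. In the 40 other arrays it was 0.32 (permutation p = 0.13, rho = 0.27). Pon1 with Pon2 was 0.13 in WT and 0.12 elsewhere, with adjusted permutation p of at least 0.73. Pon1 with Pon3 was 0.10 in WT and 0.35 elsewhere (adjusted permutation p of at least 0.29), and the latter was 0.71 on date 1 and 0.04 on date 2.

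**Figure D5:**
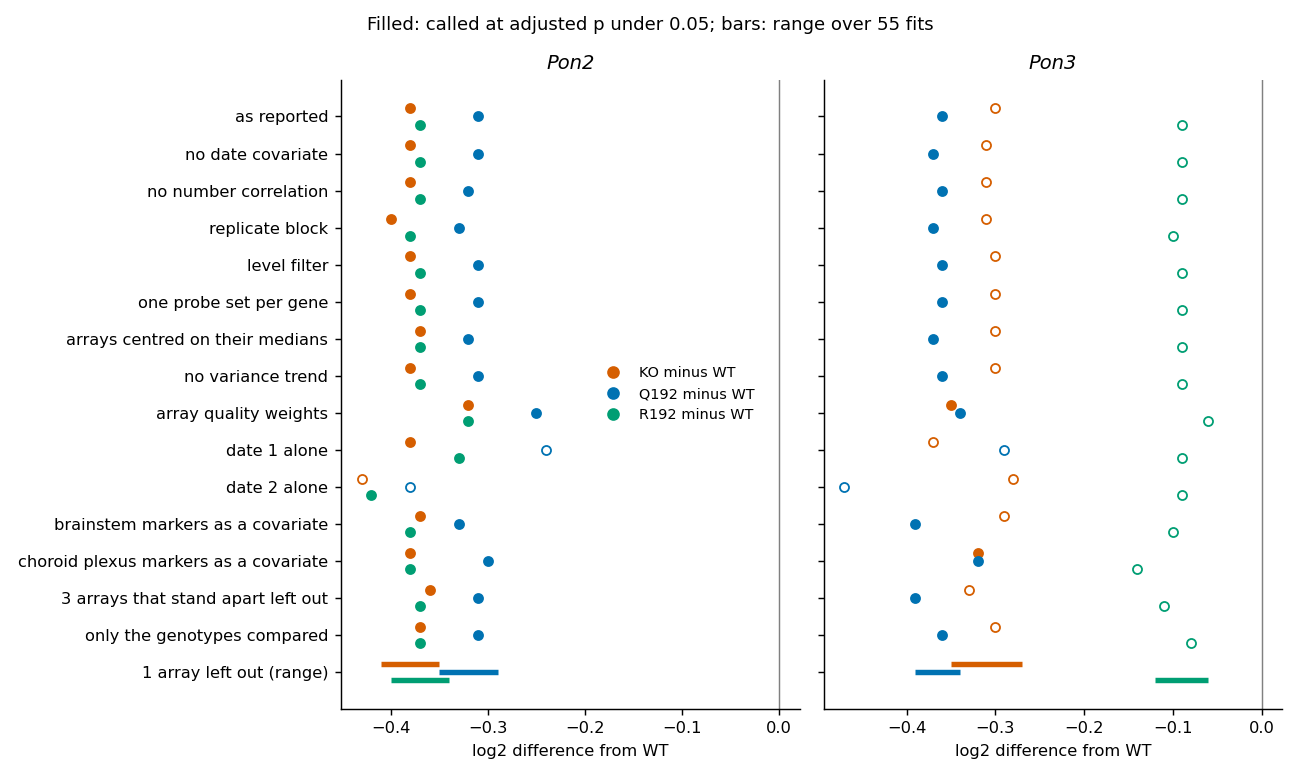
Log2 difference from WT of Pon2 (left) and Pon3 (right) under each processing alternative; filled points passed at an adjusted p under 0.05 and the bars at the bottom span 55 fits that leave out 1 array each. Every Pon2 value lies between -0.43 and -0.24, while Pon3 in R192 stays between -0.14 and -0.06.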

How the data were processed

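The deposited values of the 55 arrays are log2 expression levels that the authors made with RMA in Affymetrix Expression Console 1.1, per the submitters' processing notes; the log base is inferred from their range (1.15 to 14.8). The genome build behind the array annotation is not stated by the labels or files used. Of 35557 probe sets, 21789 had 1 gene symbol and were tested, with no level filter; 1621 had several and 12147 none.

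Differences were fitted with limma 3.58.1 in R 4.3.3 with 12 group means, array date as a covariate, a correlation of 0.09 between arrays sharing a description number (duplicateCorrelation) and a variance trend. Each of 44 comparisons had its own Benjamini-Hochberg adjustment, with calls at an adjusted p under 0.05. The number of arrays limits the precision. Relations and figures used Python 3.11.15. The fit was tested on simulated data. Among 104 pairs of arrays within groups, 0 were identical.

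The members and lists were chosen with earlier results of these data known. Named were all paraoxonase probe sets, Ache and Bche, up to 4 called members per list, the 3 genes on either side of the cluster and the 5 most like each paraoxonase. Alternatives changed 1 choice at a time (fit, scaling, filter, date, covariates, arrays fitted), and 1, leaving out 3 arrays that stand apart, was added after seeing the data.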

Additional observations from a re-analysis of the deposited data

Results flagged for a closer look

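Pon2 in WT 0.35 replicate 5 was 9.93, with the other 5 arrays of its group between 9.66 and 9.74. Pon2 in Q192 0.5 replicate 1 was 9.82, with the other 4 between 9.62 and 9.68. Both stood farther from their group than Dixon's 95% critical value allows. Of 30 groups of 4 to 10 arrays searched over the 3 genes, chance alone gives about 1 in 20.

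Pon2 at 0.5 mg/kg/day differed from vehicle by +0.23 in WT and -0.15 in arrays labelled KO, and neither value passed. All 3 WT arrays lay above their vehicle mean and all 3 arrays labelled KO below theirs. The difference of the dose effects was -0.38, and limma's test of it did not pass (adjusted p = 0.0872). In that comparison 5682 of 21789 probe sets had an unadjusted limma p under 0.05.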

How the results depend on the processing

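Over 66 results (the 6 genotype pairs, 8 dose effects and 8 differences of dose effects for each paraoxonase) and 4554 values from 14 alternatives and 55 fits that each leave out 1 array, 4530 kept their direction and their side of the threshold where either value was called. Of the others, 18 lost a call, 6 gained one and 0 turned a called direction. Only 7 of the 66 results were called as reported, all against WT, so most of the 4530 values had no call to lose. Of the 18 losses, 13 were Pon3 in Q192 against WT without single arrays, and 2 were that result on single dates. Values that were not called changed sign 152 times, in 37 results. Genotype pairs within treatments and 0.5 against 0.35 are not in these counts. The cause of these changes was not tested. Pon3 in KO against WT passed with array quality weights (-0.35) and with choroid plexus markers as a covariate (-0.32). Pon3 in Q192 against WT lost its call on date 1 (-0.29) and date 2 (-0.47) alone, where fewer arrays were fitted, and ranged from -0.39 to -0.34 without single arrays. Pon3 passed for R192 minus KO with array quality weights (0.29) and for R192 minus Q192 with only those genotypes fitted (0.27). Pon2 lost its call for KO on date 2 (-0.43) and for Q192 on date 1 (-0.24) and date 2 (-0.38). Without single arrays, Pon2 at 0.5 in WT ranged from 0.16 to 0.33 and the difference of its effect between KO and WT from -0.48 to -0.29.

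Replicate numbers did not pair the arrays: deviations of arrays sharing a number had a median correlation of 0.01, against 0 for others. With the replicate block, Pon2 in Q192 at vehicle passed (-0.40, adjusted p = 0.041) and Pon2 in R192 at 0.5 no longer did (-0.46, adjusted p = 0.0631).

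Counts of called probe sets moved widely. They ran from 15 (date 1 alone) to 155 (array quality weights) for KO minus WT, 25 to 139 for Q192 minus WT, 34 (date 2 alone) to 1146 for R192 minus WT, 13 to 818 for Q192 minus KO, 11 to 5371 for R192 minus KO and 1 to 329 (only the genotypes compared) for R192 minus Q192. For 0.5 against vehicle in WT they ran from 0 to 2364, and for its difference between KO and WT from 0 to 3078. Against WT within treatments, they ran from 6 to 57, 7 to 37 and 5 to 2915 at vehicle (KO, Q192, R192), from 5 to 439, 5 to 220 and 4 to 264 at 0.35, and from 3 to 1627, 4 to 40 and 3 to 34 at 0.5. They ran from 0 to 2067 for 0.35 against vehicle and 0 to 1687 for 0.5 against 0.35 in WT, 0 to 234 for 0.5 against vehicle and 0 to 10 for 0.5 against 0.35 in Q192, and 0 to 1 for 0.5 against 0.35 in R192. For differences of dose effects they ran from 0 to 2264 (0.35, KO and WT), 0 to 1 (0.35, R192 and WT), 0 to 910 (0.5, R192 and WT) and 0 to 76 (0.5, R192 and Q192).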
